A study of Mus musculus with 4 samples.

Results

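Hes1 and 6 further genes of the Notch pathway, Notch1, Notch2, Rbpj, Jag1, Nrarp and Maml2, were followed in single brain cells of 4 mice, as 7 of the 32285 genes in the count tables. Hes1 was picked because it was higher in PRMT1Cx3cr1-KO cells, so its own genotype difference is given below as a description without a test, and the remaining genes address whether others of the pathway moved with it. PRMT1FL mice (n = 2) carried floxed alleles of Prmt1 and no recombinase, and PRMT1Cx3cr1-KO mice (n = 2) carried these alleles together with CreERT driven by Cx3cr1, on a C57BL/6 background. By the study's methods mice of both genotypes received tamoxifen, and the demyelinating agent cuprizone then made up 0.2% of their diet for 5 wk. The methods place tamoxifen at 5 to 6 wk of age and the diet afterwards, whereas the sample labels attach that age to the diet. The driver was present in PRMT1Cx3cr1-KO mice and absent from controls, so an effect of the driver and an effect of the deletion cannot be told apart. Brain cells sorted for CD45 and CD11b gave 1 library per mouse.

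The Notch pathway works by contact between neighbouring cells. A ligand such as Jag1 on one cell binds a Notch receptor on the next, the receptor is cut by ADAM proteases and then by gamma-secretase, and its intracellular part enters the nucleus, where it joins the DNA-binding protein Rbpj and a Mastermind coactivator such as Maml2. This complex activates Hes and Hey repressors and Nrarp, whose product in turn limits Notch signalling, while Hes1 can also respond to other pathways and binds Groucho corepressors.

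The deposited tables held 8284 to 11554 barcodes and 76943248 to 99559644 unique molecular identifiers (UMIs, each counting 1 captured RNA molecule) per mouse, and 31 to 46 barcodes were shared by any pair of libraries. After limits on genes and mitochondrial UMIs, 7804 to 10960 cells per mouse fell into microglial clusters, in which the microglial gene Csf1r lay at 1280 to 1570 CPM (UMIs of a gene per 1000000 UMIs summed over the cells in question). Prmt1, the targeted gene, was 91.1 and 83.9 CPM in PRMT1FL against 70.3 and 70.7 CPM in PRMT1Cx3cr1-KO microglia, a log2 fold change of -0.38 (SE 0.07, adjusted p = 0.0796, edgeR), and UMIs per gene do not tell recombined from intact alleles. All edgeR values are from quasi-likelihood fits over every gene tested, adjusted by Benjamini-Hochberg. Cx3cr1, whose promoter drives the recombinase, was 1440 and 1540 against 847 and 835 CPM. Haemoglobin genes summed to 241 and 93.8 CPM in microglia of PRMT1FL mice and to 0.0614 and 0.0215 CPM in PRMT1Cx3cr1-KO mice, and neutrophil markers ranged from 0.675 CPM in PRMT1Cx3cr1-KO mouse 1 to 98.1 CPM in mouse 2. Border macrophage markers summed to 19 and 20 CPM against 35.8 and 98.4 CPM. The part of these differences in the results below was not tested, except where a value without such cells is given.

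All 7 genes carried the same identifiers in the files and in the GENCODE annotation of mm10. Hes1 (ENSMUSG00000022528) spans chromosome 16 from 30064384 to 30067796, Jag1 (ENSMUSG00000027276) chromosome 2 from 137081456 to 137116644 and Nrarp (ENSMUSG00000078202) chromosome 2 from 25180758 to 25183339. Notch1 (ENSMUSG00000026923) lies on chromosome 2 from 26457903 to 26516663, Notch2 (ENSMUSG00000027878) on chromosome 3 from 98013527 to 98150361, Rbpj (ENSMUSG00000039191) on chromosome 5 from 53466152 to 53657362 and Maml2 (ENSMUSG00000031925) on chromosome 9 from 13297957 to 13709388. RefSeq promoter entries (GRCm38.p6) matched 6 of the 7 genes, with 8 annotated starts; Hes1 had no entry. The 250 bases before the start are shown for Jag1, Nrarp and Rbpj, the members on which the account of cluster 1 below turns. Capitals mark matches to TGGGAA or its reverse complement TTCCCA, the core bound by Rbpj, and to CACGTG, an E-box form bound by several basic helix-loop-helix proteins.
Nrarp, chr2:25180508-25180757, plus strand: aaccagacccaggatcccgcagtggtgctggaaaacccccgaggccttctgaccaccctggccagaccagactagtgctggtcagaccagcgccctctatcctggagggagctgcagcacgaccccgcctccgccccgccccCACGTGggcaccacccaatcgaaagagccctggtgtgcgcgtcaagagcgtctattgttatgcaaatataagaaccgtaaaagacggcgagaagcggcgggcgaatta
Jag1, chr2:137116521-137116770, minus strand: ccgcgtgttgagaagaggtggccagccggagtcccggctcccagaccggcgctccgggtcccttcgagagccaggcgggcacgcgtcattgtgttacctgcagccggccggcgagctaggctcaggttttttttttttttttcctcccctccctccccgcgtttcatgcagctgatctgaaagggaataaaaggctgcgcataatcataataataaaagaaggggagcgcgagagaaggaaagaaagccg
Rbpj, chr5:53590096-53590345, plus strand: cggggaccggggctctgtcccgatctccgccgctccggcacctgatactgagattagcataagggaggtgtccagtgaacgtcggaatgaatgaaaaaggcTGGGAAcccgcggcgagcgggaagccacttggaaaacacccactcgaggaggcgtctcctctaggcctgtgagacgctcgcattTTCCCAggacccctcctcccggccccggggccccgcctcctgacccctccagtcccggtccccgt
The Nrarp window held 1 CACGTG, whose first base lay 108 bases before the start, and no Rbpj core. The Jag1 window held neither. The window shown for Rbpj, before the first of its 2 annotated starts, held the core at 149 and, on the other strand, at 65 bases before the start, and the latter site also fell in the overlapping window of the second Rbpj start, 205 bases before it. The window of the second Maml2 start held the core once, on the other strand. The windows of Notch1, Notch2 and the first Maml2 start held no core. The core was found before 21.6% of all 32851 annotated starts and CACGTG before 6.02%, in windows of the same length. A match is a description of these letters and was not tested as a binding site.

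Hes1, a transcriptional repressor and a classical Notch target, was higher in the PRMT1Cx3cr1-KO microglia of both mice. Summed over microglia it stood at 35.5 and 42.2 CPM (3126 and 3074 UMIs) in PRMT1FL mice. The PRMT1Cx3cr1-KO mice held 74.9 and 60.3 CPM (6099 and 5625 UMIs). The groups did not overlap, as for 38.5% of all 13844 genes in the same direction, and the fitted log2 fold change was 0.73 (SE 0.14). This is the contrast for which the gene was chosen. Leaving out each mouse in turn gave 0.54 to 0.90, with the lowest value without PRMT1Cx3cr1-KO mouse 1.

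The receptors showed no called difference. Notch1 was 18.6 and 17.6 CPM in PRMT1FL against 21.5 and 17.8 CPM in PRMT1Cx3cr1-KO mice, and Notch2 was 20.4 and 22.9 against 22.8 and 21.7 CPM. The genotypes overlapped for both receptors. The fitted log2 differences were 0.04 (SE 0.12) and -0.03 (SE 0.08). In edgeR's test the adjusted p was 0.88 for Notch1 and 0.859 for Notch2.

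In the nuclear complex, the DNA-binding protein Rbpj was 65.8 and 60.5 CPM in PRMT1FL against 68.4 and 70.0 CPM in PRMT1Cx3cr1-KO mice. Maml2, a Mastermind coactivator, was 26.3 and 26.7 against 25.7 and 24.0 CPM. The groups stood apart in both genes, Rbpj upward and Maml2 downward, but by less than the larger distance between 2 mice of a genotype. The log2 differences were 0.06 (SE 0.07, adjusted p = 0.664, edgeR) for Rbpj and -0.17 (SE 0.07, adjusted p = 0.26, edgeR) for Maml2. Without PRMT1Cx3cr1-KO mouse 1 the value of Maml2 was -0.24.

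The ligand Jag1 and the feedback regulator Nrarp, both rare, lay above both controls in each PRMT1Cx3cr1-KO mouse without passing the test. Jag1 was 0.840 and 0.878 CPM (74 and 64 UMIs) in PRMT1FL against 1.56 and 2.25 CPM (127 and 210 UMIs) in PRMT1Cx3cr1-KO mice. Its log2 difference of 1.08 (SE 0.22) had an adjusted p of 0.0899 in edgeR. Nrarp was 0.954 and 1.07 CPM (84 and 78 UMIs) against 1.83 and 1.54 CPM (149 and 144 UMIs), a log2 difference of 0.67 (SE 0.19, adjusted p = 0.143, edgeR).

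None of the 6 genes besides Hes1 passed an adjusted p of 0.05 in edgeR, against 0.535% of all genes tested (0.405% upward and 0.13% downward), and 2 of the 6 had an unadjusted p under 0.05, against 19.7%. The genotypes stood apart upward in 3 of the 6, against 38.5% of all genes, and downward in 1, against 17.4%. DESeq2 called 1 of the 6, Jag1 (adjusted p = 0.0208), and 705 of all 13844 genes tested. The size of the Jag1 difference also depended on the mice kept. In edgeR it was 1.30 without PRMT1Cx3cr1-KO mouse 1 and 0.81 without mouse 2. Without PRMT1FL mouse 1 or 2 it was 1.04 and 1.11. Nrarp had a log2 difference of 0.81 without PRMT1Cx3cr1-KO mouse 2. Its value was 0.19 (adjusted p = 0.572, edgeR) when all cells were summed, astrocyte-like cells included.

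**Figure D1:**
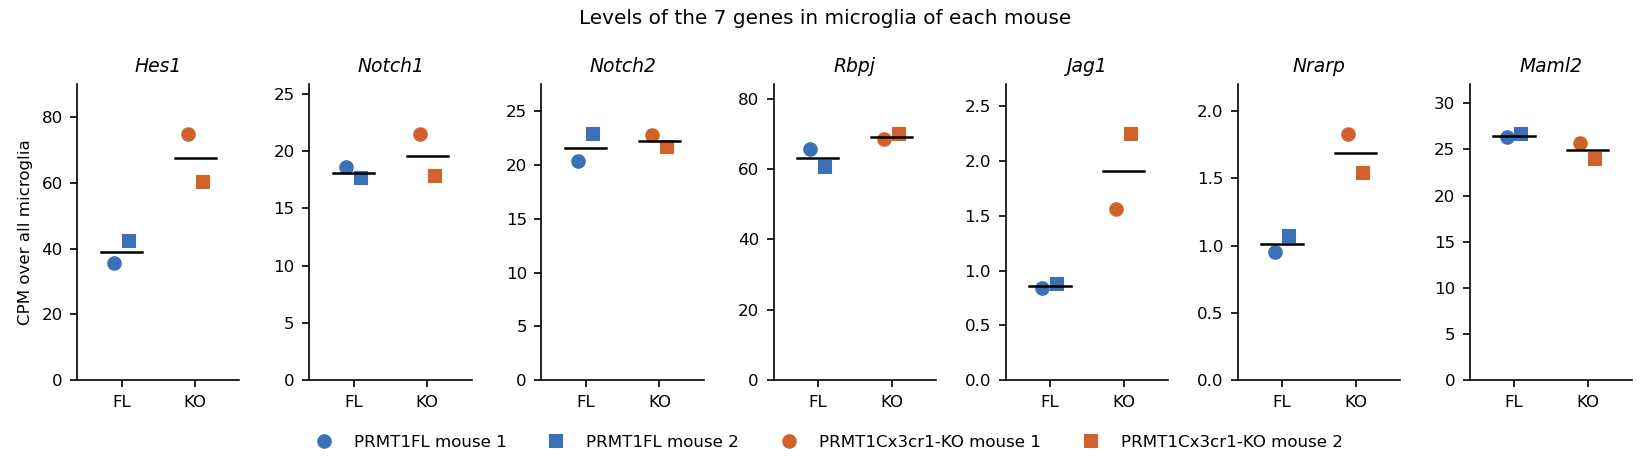
Level of each of the 7 genes in CPM summed over microglia (vertical axes from 0, 1 scale per gene), with 1 point per mouse and a bar at the mean of 2 mice. Hes1, Jag1, Nrarp and Rbpj lie higher in each PRMT1Cx3cr1-KO (KO) mouse than in the PRMT1FL (FL) mice, Maml2 lies lower, and Notch1 and Notch2 overlap.

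Across the wider pathway, 82 of 83 further listed genes were in the table and 70 could be tested in microglia. Of these, 31 had a fitted fold change above 0 and 39 below, where 49% of all genes lay above 0. The median was -0.03 on the log2 scale against 0 over all genes tested. The 6 genes above are counted in the list. A single gene was called by edgeR, and it was lower, where 0.535% of all genes were called and 0.13% were called lower. Neurl1a, an E3 ubiquitin ligase that acts on Notch ligands, was 28.5 and 26.6 CPM in PRMT1FL against 19.7 and 21.1 CPM in PRMT1Cx3cr1-KO microglia, with a log2 fold change of -0.51 (SE 0.07, adjusted p = 0.0476, edgeR). The genotypes did not overlap, as for 17.4% of all genes in the same direction. The call was lost with libraries scaled to total UMIs, with cells reduced to 1000 UMIs, without the cycling-like clusters, without cluster 1 (described below) and without either PRMT1FL mouse, where no gene of the list was called. At an unadjusted p under 0.05, 10 genes lay above 0 and 10 below, where the shares over all genes were 9.99% and 9.76%. The 10 below included Nedd4, which passed the filter on low counts only through the PRMT1FL mice.

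Among ligands and receptors, Jag1, Jag2 and Notch4 had upward differences. Jag2 was 4.11 and 3.99 CPM in PRMT1FL against 5.94 and 7.06 CPM in PRMT1Cx3cr1-KO microglia, with a log2 difference of 0.61 (SE 0.11, adjusted p = 0.0798, edgeR). Notch4 was 6.89 and 7.18 against 10.8 and 14.2 CPM, a log2 difference of 0.75 (SE 0.13, adjusted p = 0.0763, edgeR). Neither gene overlapped between genotypes, as for 38.5% of all genes in the same direction, and neither passed the threshold. The ligand Dll1 rested on 39 UMIs in all, at 0.125 and 0.151 CPM in PRMT1FL against 0.0737 and 0.118 CPM in PRMT1Cx3cr1-KO microglia. It passed the filter on low counts only through the PRMT1FL mice, so no test is read from it. The receptor Notch3 had 1 UMI over all microglia and Dll4 had 8, too few to test.

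None of the 15 genes of receptor processing was called by edgeR, and 4 had an unadjusted p under 0.05, 2 in each direction, where 0.535% of all genes were called and 19.7% had such a p. Aph1c, a gamma-secretase subunit with a close copy in Aph1b that makes its counts uncertain, was 3.94 and 4.01 against 2.84 and 2.68 CPM (log2 difference -0.60, adjusted p = 0.0887, edgeR). Pofut1, which adds fucose to Notch, was 20.4 and 19.9 against 17.7 and 17.9 CPM (-0.25, adjusted p = 0.123, edgeR). Adam10, the protease of the first cut, was 98 and 102 against 113 and 125 CPM (0.18, adjusted p = 0.216, edgeR).

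The nuclear complex and the corepressors stayed close to 0, with medians of -0.05 over 11 genes and 0.05 over 11 genes. None of these genes was called by edgeR, against 0.535% of all genes. In the complex, 1 gene lay above 0 and 2 lay below at an unadjusted p under 0.05 (9.99% and 9.76% of all genes). These were Ccnc, a cyclin of the Mediator kinase (0.26), and the acetyltransferases Ep300 (-0.17) and Kat2a (-0.20). Of the corepressors 1 gene, the deacetylase Hdac1 (0.18, unadjusted p = 0.0348, edgeR), was below that p, against 19.7% of all genes. Cir1 (0.17) and Spen (-0.12) followed.

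Among the genes of turnover and endocytosis, 5 of 15 lay below 0 and 1 above at an unadjusted p under 0.05 (9.76% and 9.99% of all genes), with a median of -0.13. Besides Neurl1a these included Numb, an inhibitor of Notch receptors, at 60.7 and 68.0 against 55.7 and 56.2 CPM (-0.28, adjusted p = 0.134, edgeR). They also held Nedd4, with 52 UMIs in all, at 0.341 and 0.124 against 0.086 and 0.0644 CPM. It passed the filter on low counts only through the PRMT1FL mice, so no test is read from it. The Hes and Hey family and other reported targets had 6 of 7 tested genes above 0 (49% of all genes). Of these, 3 had an unadjusted p under 0.05 (9.99% of all genes). None of the 7 was called by edgeR, against 0.535% of all genes. Cdkn1a, a cell cycle inhibitor, was 187 and 173 against 282 and 221 CPM (0.41, adjusted p = 0.177, edgeR), and Ccnd1, cyclin D1, was 91.3 and 95.8 against 109 and 135 CPM (0.31, adjusted p = 0.158, edgeR). Cycling markers summed to 147 and 148 against 202 and 296 CPM, and their part in these values was not tested.

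Other genes of the Hes and Hey family had differences near 0 or were too rare. Hes6 was 23.1 and 22.6 against 25 and 25.3 CPM (0.07, adjusted p = 0.563, edgeR) and Hes7 was 2.23 and 2.98 against 3.05 and 2.53 CPM (0.03, adjusted p = 0.947, edgeR). Hey1 lay at 0.160 to 0.273 CPM in every mouse and overlapped between genotypes. Hes5 was seen at 0.908 CPM in PRMT1FL mouse 1 and at 0 to 0.0274 CPM in the other mice, and was not tested. All 5 tested genes of the Groucho family (Tle1 to Tle5) had a fold change below 0, where 49% of all genes lay above 0. Whether the product of each binds Hes1 was not examined. None was called by edgeR, against 0.535% of all genes. The lowest was Tle2, at 1.79 and 2.06 against 1.2 and 1.27 CPM (-0.71, adjusted p = 0.0996, edgeR), while Tle3 (-0.08) and Tle4 (-0.07) were close to 0.

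**Figure D2:**
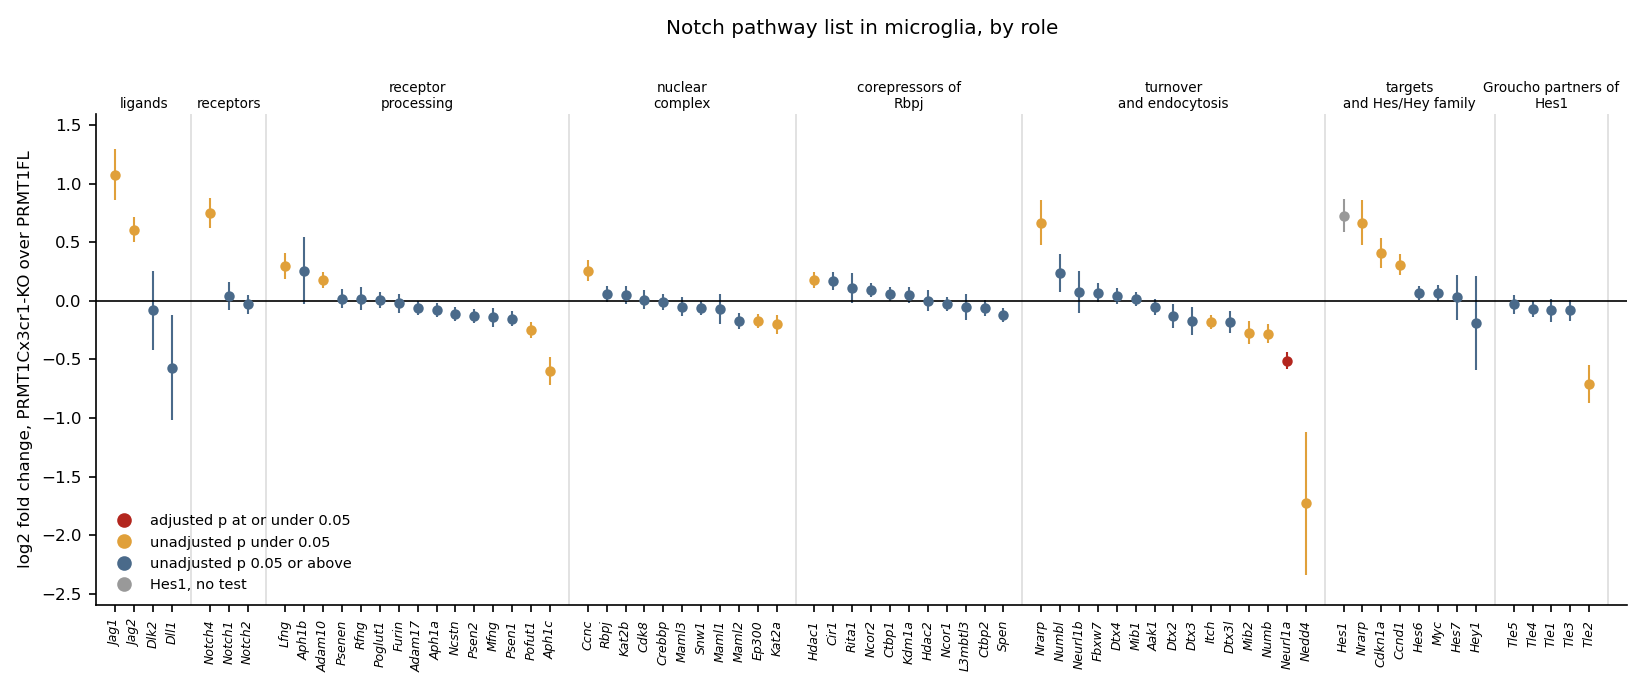
Fitted log2 fold change (vertical axis, PRMT1Cx3cr1-KO over PRMT1FL, bars are SE) of each tested gene of the Notch list in microglia, grouped by role; Nrarp stands in 2 groups and Hes1 is drawn without a test. Neurl1a alone is called at an adjusted p of 0.05, while Jag1, Notch4, Nrarp and Jag2 have the highest values besides Hes1.

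The share of microglia in which Hes1 was detected was higher in each PRMT1Cx3cr1-KO mouse. This share comes from the same UMIs for which the gene was chosen, so it is a description and adds no separate evidence. A UMI of Hes1 was found in 15.6% (95% exact Clopper-Pearson interval 15 to 16.3) and 18.9% (18 to 19.7) of microglia in PRMT1FL mice. In PRMT1Cx3cr1-KO mice the share was 25% (24.2 to 25.9) and 22.3% (21.5 to 23.1). The intervals cover counting error only. In neutrophil-like cells, where Hes1 was low, 3 of 75 cells (4%) held a UMI at a median of 3752 UMIs per cell, against 6613.5 in microglia.

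With every microglial cell reduced to 1000 UMIs, the shares were 3.18 and 3.69% in PRMT1FL against 5.89 and 4.95% in PRMT1Cx3cr1-KO mice. The genotypes did not overlap, and how many of all genes stood apart in this way was not computed. Single cells held up to 44 UMIs of Hes1 but no more than 10 of any other member. Rbpj was found in 34.5 to 39.2% of microglia, Maml2 in 17.1 to 19.5%, Notch2 in 14.2 to 18.0% and Notch1 in 12.8 to 14.3%. Jag1 and Nrarp were each found in fewer than 2 of 100 microglia in every mouse. For Jag1 the share was 0.666 and 0.769% in PRMT1FL against 1.11 and 1.74% in PRMT1Cx3cr1-KO mice. Of neutrophil-like cells, which came only from PRMT1FL mice, 1 of 75 (1.33%) held Jag1. That is 1 UMI, below the limit of 3 counts, so it sets no background for these shares. The shares of Jag1 are not read as a difference.

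Clusters of microglia differed widely in Hes1. Of 9 microglial clusters, 8 held at least 50 cells in every mouse. Clusters were made from the same cells, so levels by cluster are a description. Left out were Notch genes and genes differing between genotypes by more than 1 on the log2 scale at an unadjusted p under 0.05 (edgeR). Genes with smaller genotype differences stayed in. In PRMT1FL mice the mean was highest in cluster 1 (91.0 CPM, SD 7.64, n = 2), followed by cluster 5, a cycling-like cluster led by Mki67 and Top2a (59.3 CPM, SD 1.56). The cytokine-like cluster led by Il12b and Cxcl2, cluster 3, cluster 0 and the interferon-like cluster led by Rsad2 and Ifit3 followed at 41.9, 39.0, 35.9 and 34.2 CPM, and these 4 overlapped in their mice. At the low end stood cluster 6, which was cycling-like and led by Ube2c (6.13 CPM), and cluster 2, led by Lgals3 and Ccl6 (3.29 CPM). These last 2 clusters also held the lowest shares of immediate-early and dissociation genes, at 0.0648 and 0.0773% of UMIs, against 0.567 to 2.38% in the other 6.

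In 6 of the 8 clusters Hes1 of each PRMT1Cx3cr1-KO mouse exceeded that of the controls. Over all genes tested, that order held for 39.7% in the cytokine-like, 35.8% in cluster 2, 32.6% in cluster 0, 25.8% in cluster 3, 25.5% in cluster 1, 24.1% in cluster 5, 21.4% in the interferon-like and 20.7% in cluster 6. The cytokine-like cluster went from 38.5 and 45.2 CPM to 87.3 and 85.8 CPM (log2 difference 0.96, SE 0.09). The interferon-like cluster went from 39.0 and 29.4 to 67.4 and 92.2 CPM (1.15, SE 0.18). The difference within each cluster is part of the contrast for which Hes1 was chosen, so all of them are given as a description.

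In cluster 3 Hes1 was 34.7 and 43.3 against 61.7 and 67.2 CPM (0.69, SE 0.11), and in cluster 0 it was 32.1 and 39.6 against 60.6 and 50.9 CPM (0.58, SE 0.13). The cycling-like cluster 5 showed 58.2 and 60.4 against 120 and 81.0 CPM (0.73, SE 0.17). Cluster 2, at its low level, still showed 2.98 and 3.59 against 8.58 and 6.46 CPM (1.07, SE 0.28). Cluster 6 overlapped, at 4.67 and 7.59 against 7.59 and 7.48 CPM.

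Cluster 1 was the other exception. There Hes1 stood at 85.6 and 96.4 CPM in PRMT1FL against 101 and 71.2 CPM in PRMT1Cx3cr1-KO mice, so the genotypes overlapped (log2 difference -0.01, SE 0.15). Outside cluster 1 the values were 32.8 and 38.8 against 72.1 and 58.9 CPM. The immediate-early genes of cluster 1 summed to 29000 and 24400 CPM in PRMT1FL against 27600 and 18700 CPM in PRMT1Cx3cr1-KO mice, lowest in the mouse with the lowest Hes1; their part in the level was not tested.

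**Figure D3:**
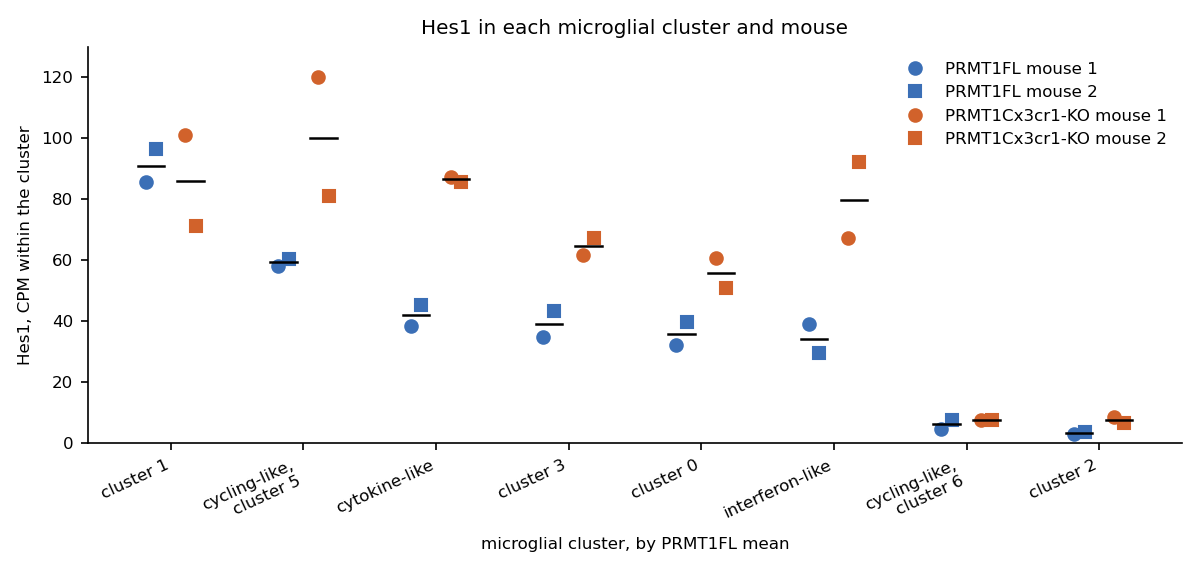
Hes1 in CPM (vertical axis, from 0) within each of the 8 microglial clusters, ordered by the PRMT1FL mean, with 1 point per mouse and a bar at the mean of 2 mice. Each PRMT1Cx3cr1-KO mouse lies above the PRMT1FL mice in 6 clusters, and the genotypes overlap in cluster 1 and cluster 6.

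The other members varied less between clusters, and all 4 of those abundant enough to compare were lowest in clusters 2 and 6. In PRMT1FL mice, mean Rbpj was 29.1 CPM in each of those 2 clusters and 61.2 to 74.7 CPM in the other 6. Notch1 was 3.56 CPM in cluster 6 and 7.06 CPM in cluster 2, against 32.5 CPM in cluster 1. Notch2 and Maml2 were also highest in cluster 1, at 47.5 and 45.5 CPM, so that cluster held the top level of Hes1 and of both receptors. Nrarp was highest in cluster 1 (3.52 CPM) and cluster 5 (3.31 CPM), which overlapped in PRMT1FL mice.

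Outside cluster 1, the genotype made no called difference to any of the 6 genes besides Hes1. Between 3 and 6 of them could be tested by edgeR in each of the other 7 clusters. Of all genes, edgeR called 2.26% in the cytokine-like, 1.85% in cluster 2, 1.45% in cluster 0, 0.763% in the interferon-like, 0.543% in cluster 6, 0.447% in cluster 5 and 0.271% in cluster 3. In cluster 0, 3 of 6 members had an unadjusted p under 0.05, against 16.7% of all genes. In the other 6 clusters none had, against 16.2% in the cytokine-like, 14.3% in cluster 2, 12.3% in cluster 3, 11.4% in cluster 5 and 8.92% in both cluster 6 and the interferon-like. In cluster 0 Jag1 was 0.718 and 0.751 against 1.2 and 1.73 CPM (0.96, SE 0.30, adjusted p = 0.172, edgeR). Nrarp was 0.749 and 0.601 against 1.59 and 1.31 CPM there (1.01, SE 0.30, adjusted p = 0.154, edgeR), and Maml2 was 27.0 and 29.1 against 24.2 CPM in both PRMT1Cx3cr1-KO mice (-0.28, SE 0.08, adjusted p = 0.15, edgeR).

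Whether the genotype difference in a cluster departed from that in the remaining microglia was tested by limma on differences within each mouse. In the 7 clusters besides cluster 1 it called no member, and called 1.53% of all genes in cluster 0, 1.23% in cluster 5, 1.15% in cluster 6, 1.14% in the cytokine-like, 0.718% in cluster 3, 0.0918% in cluster 2 and 0.0872% in the interferon-like. At an unadjusted p under 0.05 there were 2 members in cluster 3 (Notch2 and Jag1, both departing downward, against 12.4% of all genes), and Maml2 in cluster 0 (downward, against 13.4%). Rbpj was the single one in the cytokine-like (against 11.7%) and in the interferon-like (against 5.5%), downward in both. Cluster 5, cluster 6 and cluster 2 had none, against 12.2, 8.51 and 7.19%. For cluster 3 the remaining microglia included cluster 1, where Jag1 is described below. Within cluster 3 itself the log2 difference of Jag1 was -0.01 (SE 0.44, edgeR).

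Cluster 1 stood apart in the share of all genes called, as given below. It held 1458 and 1201 PRMT1FL cells and 1970 and 2243 PRMT1Cx3cr1-KO cells, at a median of 3232 UMIs per cell, and Il7r, Crybb1 and Pdlim4 led it. Markers of homeostatic microglia (P2ry12, Tmem119, Sall1, Siglech, Selplg and Sox4) reached their highest sum there in each mouse, at 7300 and 7440 CPM in PRMT1FL against 4620 and 3980 CPM in PRMT1Cx3cr1-KO mice. None of them was among its 10 leading genes, so it was left without a name. Those 10 held Tnfaip2, which the study names for its cluster E with P2ry12, Sall1 and Nfkbia. The E genes summed to 4030 and 3980 CPM in PRMT1FL against 6110 and 5320 CPM in PRMT1Cx3cr1-KO mice. Genes the study names for its cluster B1 (Spp1, Cybb, Apoe and Cd38) summed to 7870 and 7250 against 25500 and 31000 CPM. Genes of the oxidative stress response (Gdf15, Hmox1, Srxn1, Nqo1 and Txnrd1) summed to 116 and 131 CPM against 584 and 645 CPM. In this cluster edgeR called 25.6% of all genes, and 37.8% had an unadjusted p under 0.05. Jag1 and Nrarp passed the filter on low counts there only through the genotype in which they were higher, so their values in cluster 1 are given as a description without a test. Of the 4 members that passed it in both genotypes, edgeR called 1, Rbpj, a share near the 25.6% over all genes in this cluster. Since the cells assigned to the cluster differed between genotypes in many genes, a change of level within a cell and a change in which cells the cluster holds cannot be told apart.

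Jag1 was nearly absent from cluster 1 in PRMT1FL mice, with 1 UMI in each mouse (0.220 and 0.231 CPM), below the 3 UMIs taken as the limit of detection. In PRMT1Cx3cr1-KO mice it reached 39 and 86 UMIs (4.96 and 7.85 CPM), in 35 and 70 cells. The ratio of PRMT1Cx3cr1-KO to PRMT1FL over both mice was 29.5 (95% interval 8.0 to 246 for counting error only, exact). No fitted fold change is given, since it would depend on the prior count at so few UMIs in the PRMT1FL mice.

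The share of a mouse's microglial Jag1 UMIs that lay in cluster 1 was 1.35 and 1.56% in PRMT1FL against 30.7 and 41.0% in PRMT1Cx3cr1-KO mice. In all other microglia, Jag1 was 0.874 and 0.919 against 1.2 and 1.51 CPM (0.53, SE 0.20, adjusted p = 0.24, edgeR). The genotype difference in cluster 1 exceeded that in other microglia by 2.82 on the scale of log2(CPM + 0.5) (SE 0.36), a size that depends on the 0.5 added to the low values of cluster 1 in PRMT1FL mice. Leaving out each mouse in turn gave 2.63 to 3.

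Jag1 is also expressed by other brain cells, and in these libraries it stood at 5.52 to 14.0 CPM in border macrophage-like cells and 14.7 to 46.8 CPM in astrocyte-like cells. In the Ms4a7 phagocyte-like cluster of PRMT1Cx3cr1-KO mice Jag1 was 4.97 and 5.87 CPM, from 2 and 13 UMIs. Markers of such phagocytes (Ms4a7, Clec12a and Gpnmb) summed in cluster 1 to 41.6 and 47.3 CPM in PRMT1FL against 153 and 183 CPM in PRMT1Cx3cr1-KO mice. Their part in the level of Jag1 was not tested. Within cluster 1, border macrophage markers summed to 5.28 and 9.46 CPM in PRMT1FL against 17.2 and 33.3 CPM in PRMT1Cx3cr1-KO mice, and endothelial markers to 19.4 to 25 CPM in the 4 mice. Among cells of cluster 1 without any UMI of the astrocyte, endothelial and border macrophage lists, Jag1 counted 1 and 1 UMIs in PRMT1FL against 21 and 42 UMIs in PRMT1Cx3cr1-KO mice, a ratio of 16.5 (4.39 to 140). Cells with the phagocyte markers were not left out by this choice. Clustering at a finer resolution divided cluster 1 mainly into 3 groups. In the largest, led by Egr1 and Tnf, the UMIs were 1 and 1 against 30 and 49. In the group led by Gpnmb and Spp1 they were 0 and 0 against 6 and 32, and in the shallowest 0 and 0 against 3 and 3.

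Rbpj was higher in the same cluster. It was 70.4 and 75.7 CPM in PRMT1FL against 93.8 and 95.5 CPM in PRMT1Cx3cr1-KO mice (log2 difference 0.45, SE 0.10, adjusted p = 0.00567, edgeR). It did not overlap between genotypes, as for 25.5% of all genes in this cluster in the same direction. In other microglia it was 65.5 and 59.5 against 65.7 and 66.7 CPM. The difference between cluster 1 and other microglia was 0.29 (SE 0.10, adjusted p = 0.0305, limma), in a test that called 31.5% of all genes and gave 42.5% an unadjusted p under 0.05. Leaving out PRMT1FL mouse 1 ended this call (0.17, adjusted p = 0.262, limma), as did leaving out PRMT1Cx3cr1-KO mouse 2 (0.29, adjusted p = 0.061, limma). The value within cluster 1 was 0.39 (adjusted p = 0.0574, edgeR) without PRMT1FL mouse 1.

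Nrarp went the other way. In cluster 1 it counted 11 and 20 UMIs in PRMT1FL against 10 and 9 UMIs in PRMT1Cx3cr1-KO mice. Its levels there were 2.42 and 4.61 against 1.27 and 0.822 CPM, a fitted log2 difference of -1.69 (SE 0.46). In other microglia it was 0.874 and 0.846 against 1.89 and 1.64 CPM (0.97, SE 0.19, adjusted p = 0.103, edgeR). The difference between the 2 was -2.07 on the scale of log2(CPM + 0.5) (SE 0.38) and ranged from -2.49 to -1.65 with each mouse left out in turn. Within cluster 1 alone the value was -1.14 without PRMT1FL mouse 2 and -1.36 without PRMT1Cx3cr1-KO mouse 2.

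Astrocyte markers summed to 157 and 161 CPM in cluster 1 of PRMT1FL against 108 and 85 CPM in PRMT1Cx3cr1-KO mice, and Nrarp lay at 38 to 94 CPM in astrocyte-like cells. In cells of cluster 1 without a UMI of the 3 other-cell lists, Nrarp counted 6 and 9 UMIs against 3 and 3, a ratio of 0.210 (0.0668 to 0.573), too few to be kept in the edgeR fit. Notch1 was 32.6 and 32.5 against 40.9 and 35.6 CPM in cluster 1 (0.30, SE 0.12, adjusted p = 0.0918, edgeR). Its value was 0.41 without PRMT1Cx3cr1-KO mouse 2. Neither Notch2 nor Maml2 was called there.

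Hes1 itself had a smaller genotype difference in cluster 1 than in other microglia, by 0.96 on the same scale (SE 0.09), given as a description. In the controls cluster 1 stood 1.34 above other microglia and in PRMT1Cx3cr1-KO mice 0.38 above.

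**Figure D4:**
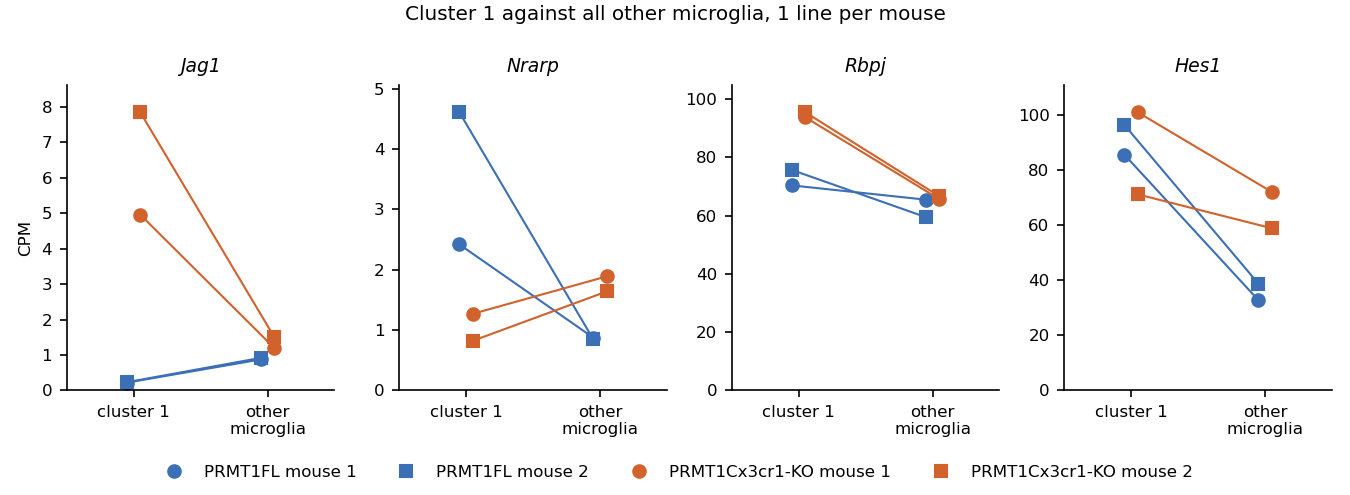
Jag1, Nrarp, Rbpj and Hes1 in CPM (vertical axes from 0, 1 scale per gene) in cluster 1 and in all other microglia, with 1 line per mouse. Jag1 is high in cluster 1 of PRMT1Cx3cr1-KO mice and near 0 in PRMT1FL mice, Nrarp is higher in cluster 1 than in other microglia in PRMT1FL mice and lower in PRMT1Cx3cr1-KO mice, and Hes1 of the genotypes overlaps in cluster 1.

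Cells with a UMI of Hes1 were compared with the remaining microglia of the same mouse, with all microglial clusters pooled. They were deeper, with medians of 10568 to 12060 UMIs per cell against 5357 to 6466.5. In CPM free of Hes1 itself, Notch1 was higher in cells with Hes1 in each of 4 mice, with log2 ratios of 0.17, 0.28, 0.26 and 0.33 (PRMT1FL mice first), and Rbpj showed 0.08 to 0.13. Jag1 was lower in each mouse, with ratios of -0.51 to -0.36, and Notch2 lay at -0.08 to -0.04. After each cell was reduced to 1000 UMIs, the ratio of Notch1 was -0.41 in PRMT1FL mouse 1 and 0.31 and -0.37 in PRMT1Cx3cr1-KO mice, from 5, 16 and 7 UMIs in cells with Hes1, and PRMT1FL mouse 2 held 1 such UMI. The mean ratio was -0.16 for Notch1 and 0.02 for Rbpj. The reduction also altered which cells held a UMI of Hes1, so no order is read from these ratios.

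Outside microglia, Hes1 was 139 to 244 CPM in astrocyte-like cells and 58.6 to 84.0 CPM in border macrophage-like cells. In the latter it was 69.2 and 58.6 CPM in PRMT1FL against 82.9 and 84.0 CPM in PRMT1Cx3cr1-KO mice, a description over 139 to 252 cells per mouse. Astrocyte-like cells (165 and 114 of PRMT1FL against 38 and 20 of PRMT1Cx3cr1-KO mice) also carried Notch1 at 91.4 to 179 CPM. Rbpj was 113 to 156 CPM in border macrophage-like cells, above its level in microglia of every mouse. The 35 endothelial-like cells of PRMT1FL mouse 1 held Notch1 at 272 CPM and Jag1 at 86.6 CPM, from 22 and 7 UMIs. In the Ms4a7 phagocyte-like cluster, with 75 and 400 cells in PRMT1Cx3cr1-KO mice and 24 and 8 in PRMT1FL mice, Hes1 was 124 and 68.7 CPM in the former.

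Genes with the pattern most like Hes1 were looked for over 32 sums (4 mice in 8 clusters) among 10724 genes with at least 500 UMIs, by Pearson's r of log2(CPM + 1). Among the 5 highest were Wipf1, Nav1, Nvl and Gm50012, each at 0.96, and the 3 lowest were the mitochondrial genes mt-Nd4 (-0.94), mt-Cytb (-0.93) and mt-Co3 (-0.92). Of the pathway, Fbxw7 (0.94), a ubiquitin ligase that turns over Notch, and Rbpj (0.92) came highest, at places 60 and 209. With the mean of each cluster removed, r was 0.80 for Wipf1, 0.50 for Fbxw7, 0.20 for Rbpj and -0.37 for Notch1. Over the ranked pathway genes it then ran from -0.70 (Aph1c) to 0.79 (Notch4). Next to these ends stood Spen (-0.52) and Ccnc (0.73). Removing the cluster means leaves differences between mice, genotype included, which is the contrast for which Hes1 was chosen. These values of r are therefore a description and add no separate evidence. The sums share libraries and differ in depth, and Jag1 and Nrarp held too few UMIs to be ranked.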

How the data were processed

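Single-cell libraries of 4 mice were sequenced, 1 per mouse. According to the submitters' processing notes and methods, Cell Ranger 3.1.0 and the mm10 genome were used by the authors, and the deposited values are unnormalized UMI counts per gene and barcode. The notes also name Seurat 3.2.0 and Scanpy 1.5.2. Following the study's limits, a cell was kept with 200 to 6000 genes and up to 10% of UMIs from mitochondrial genes. Doublets were kept and left out in an alternative.

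Leiden clustering used scanpy 1.11.5 (resolution 0.3, 2000 variable genes, 20 principal components, 15 neighbours). It left out the 1197 genes past the genotype cut-offs given above over all cells, the Notch list, and mitochondrial and haemoglobin genes. A name ending in -like stands for markers only. Raw counts were summed per mouse, and per cluster with at least 50 cells in every mouse. Genotypes were compared by edgeR 4.0.16 (R 4.3.3, TMM, filterByExpr, quasi-likelihood test), and a cluster with the other microglia by limma 3.58.1 on log2(CPM + 0.5) differences within each mouse. Adjusted p-values run over all genes tested, with 0.05 as threshold. DESeq2 1.42.0 was an alternative. CPM use total UMIs and edgeR fold changes TMM, a shift of 0.07 in the median log2 value over all microglia. Within clusters this shift was not computed and can differ. The limma differences rest on CPM from total UMIs without TMM. Fits were tested on simulated data. Intervals and limits of 3 counts cover counting error only.

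The members and the gene lists were chosen with earlier results of these data known. Named genes are the members, every list by counts, and the 3 genes with the smallest p in each role, with Neurl1a as the gene called. Other list genes named, among them Hes5, Hes6, Hes7, Hey1, Notch3 and Dll4, were picked after their values were seen. The labels number the mice but do not say that numbers mark a shared litter or day. The mouse is the replicate. Some genes that these rules would name are not reported here.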

Additional observations from a re-analysis of the deposited data

Results flagged for a closer look

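In cluster 1 the genotype differences of Rbpj, Jag1 and Nrarp were set against those in all other microglia. This used limma on log2(CPM + 0.5) differences within each mouse, which called 31.5% of all genes in this cluster. Rbpj departed upward by 0.29 (adjusted p = 0.0305, limma), a call that ended on leaving out PRMT1FL mouse 1 or PRMT1Cx3cr1-KO mouse 2. The values were 2.82 for Jag1 and -2.07 for Nrarp. Jag1 passed the filter on low counts in cluster 1 only through the PRMT1Cx3cr1-KO mice (1 and 1 against 39 and 86 UMIs) and Nrarp only through the PRMT1FL mice (2.42 and 4.61 against 1.27 and 0.822 CPM), so both values are a description and no test is drawn from them.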

How the results depend on the processing

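With 2 mice per genotype, the counts of calls depended most on which mouse was kept. Among all genes in microglia edgeR called 74. Leaving out each mouse in turn gave 4 to 2758 calls, fewest without PRMT1FL mouse 1 and most without PRMT1Cx3cr1-KO mouse 1, where a genotype left with 1 mouse is assumed to vary like the other. The Notch list held 1 call with all mice, and 0 to 18 with a mouse left out. Other settings gave, for all genes and for the list, 122 and 0 with total UMIs only, 705 and 6 with DESeq2, 1688 and 13 without the filter on low counts, 749 and 10 over all cells, and 24 and 0 without cluster 1. Without the cycling-like clusters, and with each cell reduced to 1000 UMIs, the list held 0 calls. The settings without cluster 1, without clusters 2 and 6, and on subsets of cluster 1 were chosen after seeing the data.

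With the replicate number as a block, edgeR called 314 genes and 2 of the list, Jag1 stood at 1.05 (adjusted p = 0.0562, edgeR), and no member was called. Mice of the same number were not shown to be paired, since their deviations from the genotype means correlated at r = 0.05 over 13844 genes, so the block is only an alternative.

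The log2 fold change of Hes1 stayed above 0 in all 16 alternatives. That of Notch1 turned to -0.05 without cluster 1 and ranged from -0.12 to 0.20 with each mouse left out. Notch2 turned to 0.04 with total UMIs only and 0.07 with reduced cells, and ranged from -0.12 to 0.05. Among settings that kept all mice, Jag1 passed the threshold with DESeq2 and without the low-count filter (1.08 in both), and Nrarp passed without the filter (0.67). With each mouse left out, Jag1 ranged from 0.81 to 1.30 and Nrarp from 0.52 to 0.81. Calls of members gained with a mouse left out are counted below but not listed. Maml2 ranged from -0.24 to -0.09. Within cluster 1, Rbpj ranged from 0.39 to 0.52, was 0.40 and not called in the finer group led by Gpnmb and Spp1, and was -0.08 in the shallowest one. Nrarp ranged there from -2.09 to -1.14. The departure of Rbpj in cluster 1 from other microglia ranged from 0.17 to 0.41, and in cluster 3 the number of members called ranged from 0 to 1 (Notch2 without PRMT1Cx3cr1-KO mouse 1). With cells reduced to 1000 UMIs the log2 ratio of shares of cells with Hes1 was 0.66, and the ratios between cells with and without Hes1 were -0.16 for Notch1, 0.11 for Notch2 and 0.02 for Rbpj. At resolution 0.6, Hes1 was 69.8 CPM in cluster 3 of PRMT1Cx3cr1-KO mice and 56.5 CPM in cluster 5 of PRMT1FL mice. The cause of these changes was not tested. Comparisons with alternative settings chosen at the outset were tallied, with counts of calls held to a fixed fold limit. Of these, 208 kept their direction and side of the threshold, or stayed within that limit or the spread between mice. Another 27 moved further, most of them counts of calls. Direction turned in 5, while 7 newly passed the threshold and 5 no longer passed it. Many of the 208 were counts of 0 members called in a cluster. The tally includes the Jag1 and Nrarp fits of cluster 1, from which no test is read. Jag1 and Nrarp rested on the fewest UMIs of the members and had the widest standard errors in microglia (0.22 and 0.19).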

Other observations

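Cells with a UMI of Hes1 also carried more RNA of immediate-early genes than the remaining microglia of the same mouse, after every cell was reduced to 1000 UMIs. The log2 ratio lay above 0 in each of 4 mice for Egr1 (0.70 to 1.02), Jun (0.62 to 0.88), Fos (0.42 to 0.72) and Atf3 (0.31 to 0.71), all transcription factors that respond within minutes to stimulation and to tissue dissociation. In the proliferation marker Mki67 it was 0.06 and 1.74 in PRMT1FL and 0.92 and 0.69 in PRMT1Cx3cr1-KO mice, from 6 to 35 UMIs in cells with Hes1. Without the reduction the ratios were 0.35 to 0.83 for Egr1, 0.01 to 0.36 for Jun and 0.16 to 0.52 for Fos. For Atf3 they were -0.07 to 0.45, with PRMT1Cx3cr1-KO mouse 1 below 0. The reduction altered which cells held a UMI of Hes1, so no order is read from these ratios. They are a description without a test. All microglial clusters were pooled in these ratios, and clusters 2 and 6 were the lowest of the compared clusters in both Hes1 and immediate-early genes. No ratio within a cluster was computed, so differences between clusters and between cells of a cluster are not told apart.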
